A study of Homo sapiens with 6 samples.

Results

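The keratin family was followed in the RNA of HCT116 cells, a human colorectal carcinoma line, with and without LSD1. Its members were taken as every protein-coding gene with a symbol made of KRT and a number, with or without a closing letter, which left out the keratin-associated proteins and the pseudogenes. There were 55 such genes among the 60240 genes of the table, 29 of type I and 26 of type II. The study compared 3 libraries of unmodified WT cells with 3 libraries of LSD1 KO cells to see which genes depend on this demethylase of histone H3 lysine 4. The knockout was made with a CRISPR/Cas9 plasmid (PX459) and a guide in the first exon of the gene, followed by puromycin selection and expansion of single clones. The sources used here do not state how many clones the 3 KO libraries represent, and they do not describe the WT cells as having gone through the plasmid or the selection.

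Keratins are the intermediate filament proteins of epithelial cells. A filament is built from pairs of a type I (acidic) and a type II (basic) chain, so each cell type makes a matched set of both kinds. The simple epithelium of the gut is known for KRT8 with KRT18, KRT19 and KRT20, basal layers of stratified epithelia for KRT5 with KRT14 and KRT15, and the hair shaft and its sheaths for keratins of their own. The type I genes lie together on chromosome 17 and the type II genes on chromosome 12, with the exception of KRT18, a type I gene at the end of the type II cluster.

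In brief, HCT116 cells expressed a simple epithelial set of KRT8, KRT18 and KRT19, and most of the family was silent or close to it. KRT15 was on average 3.03-fold higher and KRT80 7.02-fold higher in LSD1 KO cells, with no overlap between the groups. In edgeR with its usual filter on low counts, neither passed without regard to the replicate number and both passed with the number as a block. Both also passed without the block in DESeq2, and in edgeR without the filter. KRT19 made up a larger and KRT18 a smaller share of the type I RNA in every KO library than in any WT library. These genes make up nearly all of that RNA, so their shares mirror each other. The shares were chosen after the values were seen, and neither gene passed in edgeR over all libraries, without or with the block.

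The libraries held between 25379279 and 29186963 deposited counts. LSD1 itself (KDM1A) was at 223.1 ± 8.78 CPM (counts scaled to library size; SD, n = 3) in WT and 28.4 ± 1.30 in KO libraries, which matched the labels. The first principal component, with 45.9% of the variance, set replicate 2 of both groups (50.5 in WT and 58.0 in KO) apart from the 4 other libraries (−51.1 to −6.91), so results that could rest on replicate 2 are also given without it. Of 11 markers of intestinal epithelium, EPCAM (204 CPM in WT) and CDH1 (36.04 CPM) were present, CDX1 had 0 counts in every library, and VIL1, CDH17 and LGALS4 had group means under 0.3 CPM. Of 8 fibroblast markers, COL1A2, COL3A1, DCN, LUM and PDGFRA had at most 3 counts in every library, and the summed level of all 8 was 21.5 to 24.8 CPM in WT and 31.7 to 35.5 CPM in KO libraries, most of it COL1A1. COL1A1 passed in edgeR with the replicate number as a block (log2 fold change 0.52, adjusted p = 0.0628), but not without it in edgeR (adjusted p = 0.999). The 6 blood markers summed to at most 0.232 CPM in WT and 0.442 CPM in KO libraries. The fibroblast sum moved with the groups, and its part in the keratin results was not tested.

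Of the 55 keratins, 10 had a mean of at least 1 CPM in WT or KO libraries, 7 of type I (KRT10, KRT15, KRT18, KRT19, KRT23, KRT32 and KRT222) and 3 of type II (KRT7, KRT8 and KRT80). Another 13 stayed under 1 CPM with more than 3 counts in at least 1 library, 9 never exceeded 3 counts, and 23 had 0 counts in all 6 libraries. The 0-count genes were 8 of the 29 type I and 15 of the 26 type II genes. A count of 0 allows a level of up to 3 counts, which came to between 0.0994 and 0.114 CPM depending on the library, counting error only.

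By usual site of expression, all 5 simple epithelial keratins (KRT7, KRT8, KRT18, KRT19 and KRT20) had counts, and 4 of them reached 1 CPM. All 8 keratins of the inner root sheath, the layer that moulds the growing hair, had 0 counts. Of the 17 hair keratins, 11 had counts in some library and KRT32 alone reached 1 CPM. Of the 3 basal keratins KRT15 alone reached 1 CPM, while its usual type II partner KRT5 had 0 counts in WT and a single count in each of KO replicates 1 and 2. Of the 5 cornifying keratins, which mark the upper layers of the epidermis, KRT10 alone reached 1 CPM, and its partner KRT1 had 0 counts. None of the 5 mucosal or corneal and none of the 6 activated or appendage keratins reached 1 CPM. The remaining 6 genes, outside these classes, included KRT23, KRT80 and KRT222 above 1 CPM.

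**Figure D1:**
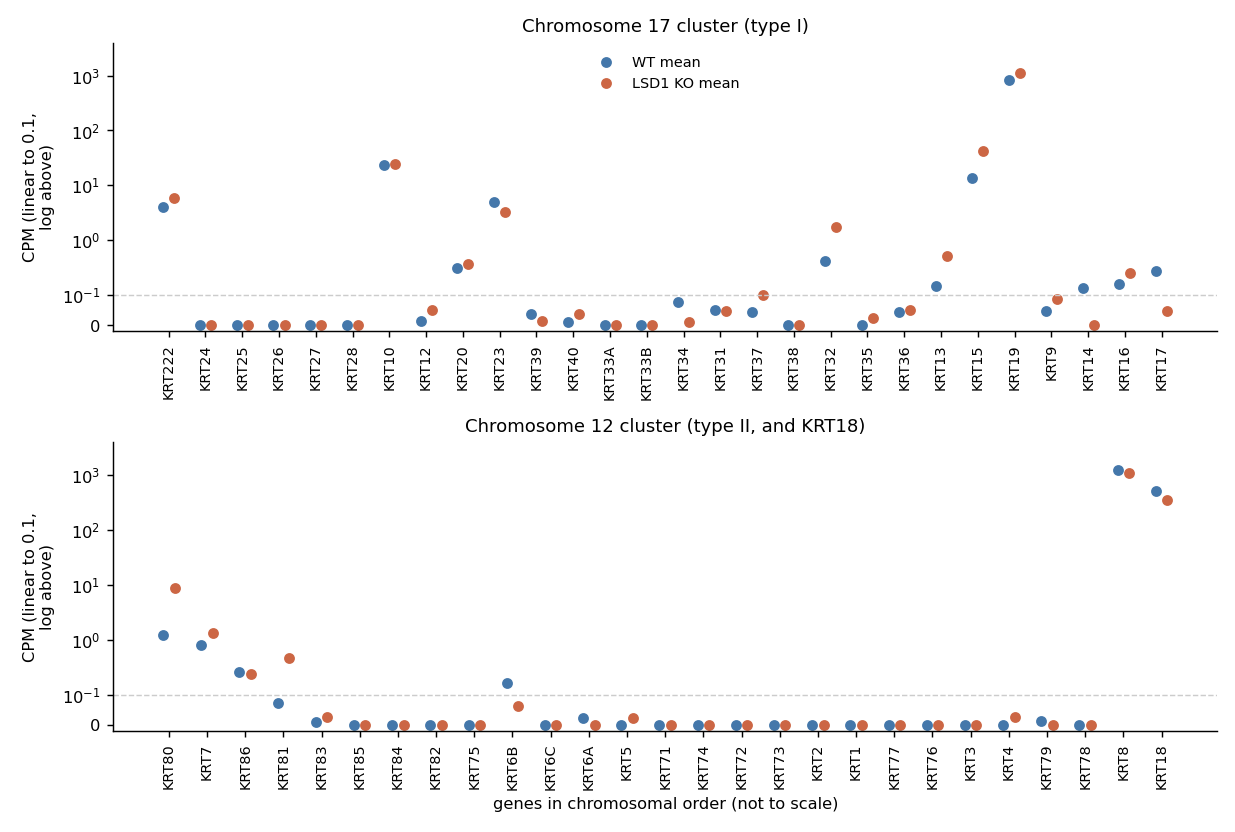
Mean CPM of WT (blue) and LSD1 KO (orange) libraries for each keratin in chromosomal order, type I on chromosome 17 above and type II with KRT18 on chromosome 12 below, n = 3 libraries a group. The vertical axis is linear up to the dashed line at 0.1 CPM and logarithmic above it, and the expressed genes of chromosome 12 stand at both ends of a row of genes at or near 0.

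Along the genome the expressed genes were unevenly placed, as the plot of levels in chromosomal order shows. On chromosome 12 (all positions are GRCh38), KRT80 (chr12:52168996-52192014, minus strand) and KRT7 (chr12:52233243-52255853, plus strand) opened the cluster, and KRT8 (chr12:52897191-52949860, minus strand) and KRT18 (chr12:52948855-52952906, plus strand) closed it. Between KRT81 and KRT8, KRT6B was the single gene with more than 3 counts in any library. The annotated spans of KRT8 and KRT18 overlap on opposite strands. On chromosome 17 the most abundant type I gene, KRT19 (chr17:41523617-41528308), stood next to KRT15 (chr17:41513745-41518890), and KRT15 next to KRT13 (chr17:41500981-41505612). KRT32 lay nearby at chr17:41459513-41467386 and KRT10 at chr17:40818117-40822614.

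RefSeq's promoter table (GRCh38.p14) lacked KRT7, KRT15, KRT18, KRT19, KRT23, KRT80 and KRT222, so the promoter results do not cover them. It held the 250 bases before the start of 34 of the 55 genes. These are shown for KRT32, a hair keratin with separate levels in the groups, for its chromosome 17 neighbour KRT35, a hair keratin with 0 counts in WT and 2 counts over the KO libraries, and for KRT10, which was expressed at like levels in both groups. All 3 are written 5′ to 3′ along the gene, on the minus strand, ending at the base before the start. Capitals mark a match to the letters TATAAA, those of the TATA box, or to AACNGGTT, those of a grainyhead-like site.
KRT32 (chr17:41467387-41467636): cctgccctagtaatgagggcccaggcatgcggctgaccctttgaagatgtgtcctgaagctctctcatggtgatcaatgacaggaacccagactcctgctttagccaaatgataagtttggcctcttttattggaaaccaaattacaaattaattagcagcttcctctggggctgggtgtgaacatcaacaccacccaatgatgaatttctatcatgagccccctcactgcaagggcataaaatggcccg
KRT35 (chr17:41481152-41481401): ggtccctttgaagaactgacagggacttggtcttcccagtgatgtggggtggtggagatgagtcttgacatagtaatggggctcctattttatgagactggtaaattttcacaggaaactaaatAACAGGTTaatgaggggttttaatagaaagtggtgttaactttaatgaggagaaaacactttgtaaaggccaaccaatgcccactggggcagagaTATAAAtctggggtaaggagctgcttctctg
KRT10 (chr17:40822615-40822864): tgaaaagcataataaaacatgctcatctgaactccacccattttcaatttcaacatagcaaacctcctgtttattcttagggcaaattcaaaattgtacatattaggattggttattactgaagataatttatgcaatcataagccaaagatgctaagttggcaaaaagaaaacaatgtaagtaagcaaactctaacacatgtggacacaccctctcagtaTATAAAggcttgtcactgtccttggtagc

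In KRT35 the TATAAA match began 31 bases before the start and the AACNGGTT match 126 bases before it. In KRT10 the TATAAA match began 29 bases before the start. The KRT32 window held none of the motifs searched. Both strands were searched, and the motifs did not overlap in these windows. TATAAA was in 20 of the 34 keratin promoters (58.8%) and in 10.7% of all 35116 promoters of the table. CAGGTG, an E-box read by ZEB and SNAI repressors, was in 6 of 34 (17.6%) against 17.5% of all. AACNGGTT was in 1 of 34 (KRT35) against 1.49% of all. TGANTCA, an AP-1 site, and CCGTTA, an OVOL site, were in 0 of 34 keratin promoters against 6.57% and 2.45% of all. The keratin windows were poor in CpG, with a median of 2 CpG dinucleotides against 11 over all promoters, a median observed over expected CpG of 0.143 against 0.558, and a median GC content of 44.6% against 58.0%. This held for the 16 genes with a count in any library (observed over expected 0.163) and for the 18 with 0 counts (0.130). Among the 16, KRT8, KRT10 and KRT32 alone reached 1 CPM, so this does not compare expressed with silent genes. The promoter values are descriptions of letters in a window, not of factor binding.

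The abundant keratins carried nearly all of the family's RNA. KRT8, KRT18 and KRT19 together made up 98.01 to 98.2% of all keratin CPM in WT and 96.2 to 97.0% in KO libraries. The sum over all keratins was 1849, 3581 and 2543 CPM in WT replicates 1, 2 and 3 and 2325, 3135 and 2543 CPM in the KO replicates. The sums overlapped, and in each group replicate 2 was the highest.

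**Figure D2:**
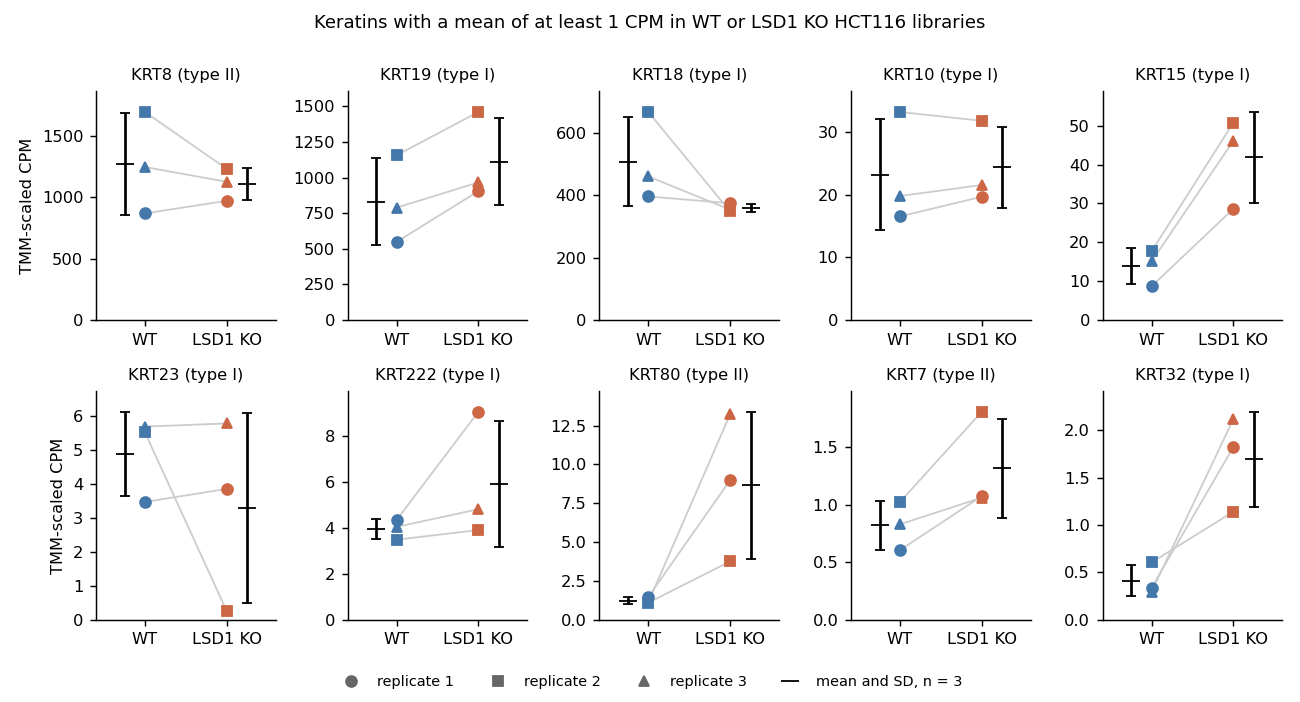
TMM-scaled CPM of the 10 keratins with a mean of at least 1 CPM, each with its own linear axis from 0, WT (blue) beside LSD1 KO (orange). Each symbol is 1 library, grey lines join libraries of the same replicate number, and black bars give the mean and SD (n = 3). KRT15, KRT80, KRT7 and KRT32 have all 3 KO libraries above all 3 WT libraries, and KRT18 has all 3 below.

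KRT8 (ENSG00000170421), the type II chain of simple epithelia, was at 867.6, 1693 and 1245 CPM in WT replicates 1, 2 and 3 and at 970.2, 1230 and 1125 CPM in KO replicates 1, 2 and 3. All 3 KO values lay inside the WT range. Its log2 fold change (KO over WT) was −0.19 with a 95% interval of −0.77 to 0.39 (edgeR, adjusted p = 0.999). With the replicate number as a block it was −0.15 with an interval of −0.42 to 0.13 (edgeR, adjusted p = 0.645). About 19.0% of the 31-base words of KRT8 transcripts also occur in other genes, mainly its pseudogenes. Counts assigned to KRT8 pseudogenes came to 0.246 to 0.723% of the KRT8 counts in any library. The quantification itself made this split, so the low share does not show that shared reads were placed rightly.

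KRT18 (ENSG00000111057), the type I chain that pairs with KRT8, was at 396.2, 667.2 and 460.5 CPM in WT and 374.6, 348.3 and 353.9 CPM in KO libraries. Every KO library was below every WT library, although WT replicate 1 and KO replicate 1 were close. KO over WT came to −0.50 on the log2 scale (SE 0.22, interval −0.996 to −0.0063) with an adjusted p of 0.999 in edgeR and an unadjusted p of 0.0477. With the block it was −0.47 (SE 0.15, edgeR adjusted p = 0.230). Leaving out WT replicate 2 moved the unblocked value to −0.26. Without replicate 2 of both groups the blocked difference was −0.25 (edgeR adjusted p = 0.197), and without replicate 1 it was −0.66 and passed at an adjusted p of 0.0581. KRT18 shares 30.9% of its 31-base words with other genes. By the same split, its pseudogenes held 0.114 to 0.697% as many counts as KRT18, which has the same limit.

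KRT19 (ENSG00000171345), a type I keratin of simple and ductal epithelia that also pairs with KRT8, was at 548.1, 1156 and 788.9 CPM in WT and 904.7, 1460 and 966.0 CPM in KO libraries. The groups overlapped, but the KO library was the higher in 3 of 3 replicate numbers, by 0.72, 0.34 and 0.29 on the log2 scale. Without the block the log2 fold change was 0.42 (interval −0.27 to 1.11, edgeR adjusted p = 0.999). It depended on single libraries, being 0.15 without KO replicate 2, 0.19 without WT replicate 1 and 0.73 without WT replicate 2. With the block it was 0.45 (interval 0.21 to 0.69) and did not pass at an adjusted p of 0.123 in edgeR, while DESeq2 with the block gave 0.00373. Without replicate 2 of both groups the blocked edgeR difference was 0.49 with an adjusted p of 0.00331.

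Relative to one another these genes stood in a different proportion in the groups. Per kilobase of transcript, the KRT19 level was 1.41, 1.76 and 1.74 times the KRT18 level in WT replicates 1, 2 and 3 and 2.46, 4.26 and 2.78 times in the KO replicates. Every KO ratio was above every WT ratio. KRT18 was 40.6, 35.4 and 35.5% of the type I level per kilobase in WT and 27.9, 18.3 and 25.3% in KO libraries, and KRT19 was 57.0, 62.3 and 61.9% in WT and 68.6, 78.1 and 70.3% in KO libraries. Together KRT18 and KRT19 held nearly all of the type I level, so their shares mirror each other. Ratios within a library do not depend on its scaling, and they show unequal change without saying which gene moved. These pairs were chosen after the values were seen, and no p is given for them.

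The balance of the types was likewise shifted. It rests almost wholly on KRT8, KRT18 and KRT19, so it is not independent of the ratios above. Type II keratins made up 41.3, 41.6 and 43.3% of the keratin level per kilobase in WT replicates 1, 2 and 3 and 36.6, 34.0 and 39.1% in the KO replicates. The means were 42.1 ± 1.05% and 36.6 ± 2.56% (SD, n = 3), a difference of −5.50 percentage points, and the groups did not overlap. KRT8 per unit of KRT18 plus KRT19 was 0.721, 0.728 and 0.781 in WT and 0.594, 0.532 and 0.667 in KO libraries. Per unit of KRT18 alone, mean KRT8 went the other way, at 1.96 in WT and 2.46 in KO libraries, with overlap between the groups. In bulk RNA, fewer cells making a keratin and less of its RNA per cell cannot be told apart.

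**Figure D3:**
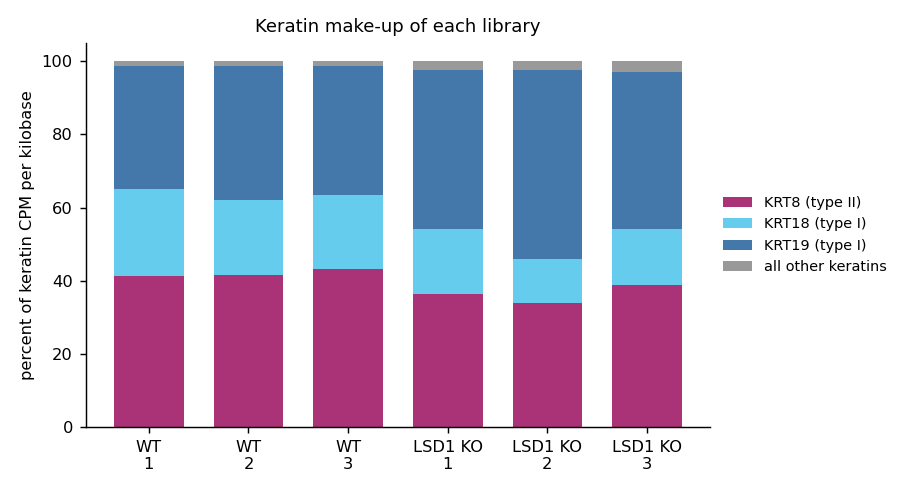
Make-up of the keratin level of each library, as the percent of CPM per kilobase held by KRT8 (type II), KRT18 and KRT19 (type I) and all other keratins, 1 bar a library from 0 to 100%. Type II keratins, nearly all of them KRT8, hold 41.3 to 43.3% in the WT bars and 34.0 to 39.1% in the KO bars, where the KRT19 part is larger.

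KRT15 (ENSG00000171346), a type I keratin of basal and stem-like epithelial cells, was at 8.69, 17.7 and 15.1 CPM in WT replicates 1, 2 and 3 and 28.6, 50.8 and 46.1 CPM in KO replicates 1, 2 and 3. The lowest KO library was above the highest WT library, and the paired differences were close to each other at 1.72, 1.52 and 1.61 on the log2 scale. The means were 13.8 ± 4.63 and 41.8 ± 11.7 CPM (SD, n = 3). Its log2 fold change was 1.598 (SE 0.31, interval 0.89 to 2.30) with an edgeR adjusted p of 0.443 without the block, and 1.61 (SE 0.10, interval 1.37 to 1.86) with an edgeR adjusted p of 0.00105 with it. It also passed in DESeq2 without a block (adjusted p = 0.000704) and in blocked edgeR without replicate 2 of both groups (1.64, adjusted p = 1.17e-08). KRT15 was 0.734 to 0.961% of the type I level per kilobase in WT and 1.76 to 2.72% in KO libraries. It shares 4.29% of its 31-base words with other genes.

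KRT80 (ENSG00000167767), a type II keratin found at cell margins and in differentiating epithelia, was at 1.473, 1.098 and 1.127 CPM in WT and 8.98, 3.76 and 13.2 CPM in KO libraries. Behind these values stood 39, 29 and 34 counts for WT replicates and 251, 102 and 349 for KO replicates. The groups were far apart, and the KO libraries differed among themselves more than the WT libraries did, with replicate 2 the lowest. The log2 fold change was 2.81 (SE 0.46, interval 1.75 to 3.87) with an edgeR adjusted p of 0.391 without the block. It was 2.68 (SE 0.33, interval 1.93 to 3.43) with an edgeR adjusted p of 0.0159 with the block. Leaving out KO replicate 2 brought the unblocked edgeR test past the threshold, at 3.15 with an adjusted p of 0.0244. DESeq2 without a block gave an adjusted p of 4.3e-07. KRT80 shares 1.28% of its 31-base words with other genes.

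KRT32 (ENSG00000108759), a type I keratin of the hair cuticle, was at 0.340, 0.606 and 0.298 CPM in WT and 1.82, 1.14 and 2.12 CPM in KO libraries, from 9, 16 and 9 and from 51, 31 and 56 counts. Every KO library was above every WT library, and the means differed 4.09-fold. The log2 fold change was 2.03 (SE 0.46, interval 0.97 to 3.08) with an edgeR adjusted p of 0.587, and 2.02 with an adjusted p of 0.119 with the block. DESeq2 without a block passed it at an adjusted p of 0.0818, and blocked edgeR passed it without replicate 2 of both groups (2.60, adjusted p = 0.00197). KRT32 reached the edgeR fit only through the KO libraries, where it was high, so these tests and its separation of the groups do not stand as support. Its level remained far under those of the simple epithelial keratins, at 0.846 CPM per kilobase in KO libraries against 621.4 for KRT8.

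KRT7, a type II keratin of ductal and glandular epithelia, was at 0.605, 1.02 and 0.828 CPM in WT and 1.07, 1.81 and 1.06 CPM in KO libraries. The KO libraries were all higher, by a narrow margin, and the log2 fold change of 0.68 (interval −0.27 to 1.62) had an edgeR adjusted p of 0.999, or 0.460 with the block. It was 0.36 without KO replicate 2. KRT222, a keratin-like type I gene, was at 4.35, 3.48 and 4.04 CPM in WT and 9.05, 3.91 and 4.81 CPM in KO libraries. Its groups overlapped, KO replicate 1 stood well above the rest, and 33.9% of its 31-base words are shared with 1 other annotated gene, so its count is uncertain. Its log2 fold change was 0.58 (interval −0.22 to 1.38, edgeR adjusted p = 0.999), and 0.14 without KO replicate 1.

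KRT10, the type I keratin of cornifying epidermis, was at 16.6, 33.2 and 19.8 CPM in WT and 19.7, 31.8 and 21.6 CPM in KO libraries. The groups overlapped almost fully, with replicate 2 the highest in both. KRT10 had a log2 fold change of 0.07 (interval −0.60 to 0.75, edgeR adjusted p = 0.999), and with the block the interval narrowed to −0.15 to 0.36.

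KRT23, a type I keratin known from tumours of the digestive tract, was at 3.48, 5.53 and 5.70 CPM in WT and 3.86, 0.258 and 5.79 CPM in KO libraries. KO replicate 2 had 7 counts where the other libraries had between 92 and 172. The log2 fold change of −0.57 (edgeR adjusted p = 0.999) rested on that library, since the paired differences were 0.15, −4.42 and 0.02 and the blocked value without replicate 2 was 0.07. KRT20, the keratin of the differentiated intestinal surface, was low throughout, counted 4, 10 and 12 times in WT and 16, 1 and 13 times in KO libraries. It was lowest in the same KO library as KRT23. Its log2 fold change was 0.24 (interval −1.62 to 2.10, edgeR adjusted p = 0.999), with a sign that turned when single libraries were left out (−0.23 without KO replicate 1, 0.75 without KO replicate 2).

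**Figure D4:**
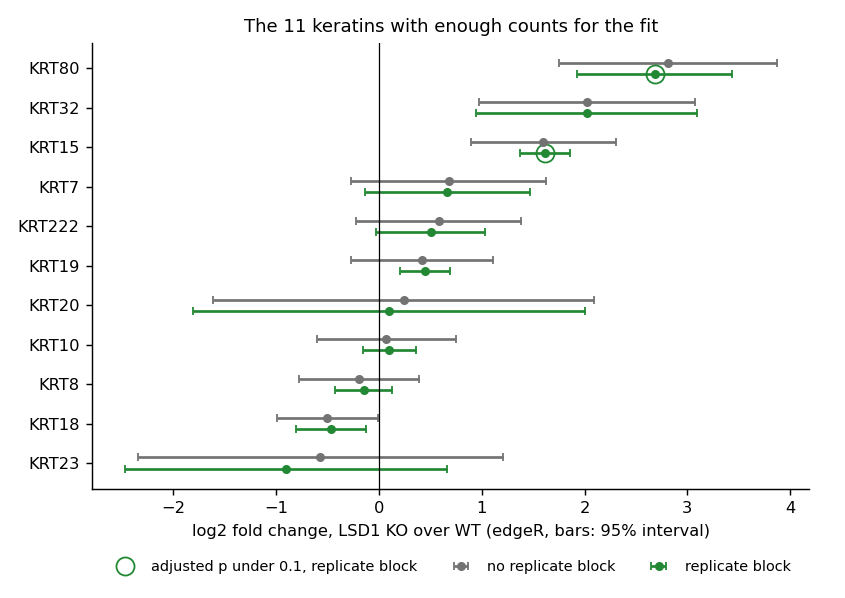
Log2 fold changes of LSD1 KO over WT with 95% intervals from edgeR for the 11 keratins with enough counts for the fit, without (grey) and with (green) the replicate number as a block. Rings mark the genes with an adjusted p under 0.1 in the blocked fit, KRT80 and KRT15, and the intervals of KRT23 and KRT20 are the widest.

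These 11 genes were all that had enough counts for the edgeR fit, so 44 of the 55 members were not tested there. Without the block, 0 of 11 passed an adjusted p of 0.1, where 0.00566% of all 17672 genes tested did, which was 1 gene, LSD1 itself. At an unadjusted p under 0.05 there were 4 (KRT15, KRT32 and KRT80 higher, KRT18 lower), where 3.12% of all genes did so. KRT32 was among the 11 only through its higher counts in KO libraries, which favours a call as higher, so it adds nothing to the counts given here for each fit. With the block 2 of 11 passed, both higher (KRT15 and KRT80), where 1.05% of all genes were called higher and 0.549% lower. DESeq2 without a block called 3 of 23 keratins with an adjusted p (KRT15, KRT32 and KRT80), all higher, where 0.225% of all genes were called higher. DESeq2 with the block called KRT15, KRT19 and KRT80, where 2.53% of all genes were called higher. Blocked edgeR without replicate 2 of both groups called KRT15, KRT19, KRT32 and KRT80, where 3.05% of all genes were called higher. It called KRT15 and KRT80 higher and KRT18 lower without replicate 1 (1.35% of all genes higher, 1.05% lower) and KRT15 and KRT80 higher without replicate 3 (0.712% higher, 0.407% lower). EdgeR without the block and without a filter on low counts called KRT15 and KRT80, where 0.183% of all genes were called higher. Among the 11, the groups did not overlap for 4 that were higher in KO libraries (KRT7, KRT15, KRT80 and, by way of the filter, KRT32) and 1 that was lower, where 4.23% and 3.51% of all tested genes were so. The study's methods state in general that experiments had biological replicates, but neither they nor the labels say what separates the libraries of a group, so the p-values measure the spread between these libraries.

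Below the limit of that fit, KRT81, a type II keratin of the hair cortex, was counted 2 times in each WT library and 11, 9 and 17 times in KO replicates 1, 2 and 3. It was the single keratin at or under 3 counts in all libraries of one group and above 3 in all of the other. The summed counts of 6 and 37 gave a ratio of 6.28 after scaling (95% interval 2.63 to 18.2, counting error only). The rule that named KRT81 fixes the separation of its groups, so no p is given. KRT81 (chr12:52285913-52291534, minus strand) lies inside the span of KRT86 on the opposite strand and shares 53.2% of its 31-base words with other genes, 43.2% with KRT86, so the split of reads between them is uncertain. KRT86, also a hair keratin, was counted 4, 13 and 4 times in WT and 0, 10 and 9 times in KO libraries.

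A few further low genes were picked out after their values were seen. KRT13, the mucosal keratin next to KRT15, was counted 0, 6 and 6 times in WT and 9, 18 and 14 times in KO libraries, a ratio of 3.48 (95% interval 1.79 to 7.28, counting error only). KRT17, a keratin of activated and appendage epithelium, was counted 9, 7 and 6 times in WT and 4, 0 and 0 times in KO libraries, a ratio of 0.185 (0.0464 to 0.545, counting error only). For both genes the groups did not overlap, which is why they were picked, and no p is given. KRT14, the basal keratin, was counted 0, 8 and 3 times in WT and in no KO library, and its groups met at 0. Of the 31-base words, KRT17 shares 23.7% and KRT14 33.4% with other genes, so the split of their few reads is uncertain. KRT16 and KRT6B, which are induced in wounded epidermis, had at most 12 counts in any library and overlapped between the groups. The other low genes had no more than 5 counts in any library.

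Lists of other genes of the keratin network were read in the same fits. Of 18 filament partners, which are genes of desmosomes, hemidesmosomes and plakins that anchor keratins and of filaggrin-like proteins that embed them, 13 could be tested and 0 passed in edgeR without or with the block (1 and 6 at an unadjusted p under 0.05). Without the block 3.12% of all genes were under that p. The share of all genes with the block is not given, so the 6 is not read as a result about the list. DESeq2 called 0 without the block and 2, both lower, with it (EPPK1 and ITGB4), where 1.68% of all genes were called lower. Blocked edgeR without replicate 2 of both groups called 3, all lower (DST, ITGB4 and PKP3), where 2.79% of all genes were called lower. DST, a plakin of hemidesmosomes, had a log2 fold change of −0.67 (adjusted p = 0.00011) in that edgeR fit, and ITGB4, the hemidesmosome integrin, −0.65 (adjusted p = 0.000158). PKP3, a desmosome plakophilin, was at 59.5, 85.7 and 68.9 CPM in WT and 47.3, 19.7 and 41.4 CPM in KO libraries, groups that did not overlap. Its blocked edgeR adjusted p was 0.178 over all libraries and 0.0057 without replicate 2 of both groups (−0.55). Of 15 other intermediate filament genes, 9 could be tested and 0 passed in edgeR without or with the block (0 and 4 at an unadjusted p under 0.05). The 4 too has no share of all genes beside it and is not read as a result about the list. LMNB1, a lamin of the nuclear envelope, was called lower by blocked DESeq2 (adjusted p = 0.0429) and by blocked edgeR without replicate 2 of both groups (−0.34, adjusted p = 0.0514). Vimentin (VIM), the filament of mesenchymal cells, was at 30.3 ± 3.96 CPM in WT and 56.0 ± 36.4 CPM in KO libraries (SD, n = 3), with KO replicate 2 alone at 97.7 CPM. Of 94 keratin-associated protein genes, which encode the matrix of the hair shaft, 84 never exceeded 3 counts, 1 could be tested and 0 passed.

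Of 13 transcription factors known to act on keratins or epithelial identity, 10 could be tested and 0 passed in edgeR without the block. At an unadjusted p under 0.05 there were 2, where 3.12% of all genes were. With the block 1 rose and 1 fell, where 1.05% of all genes were called higher and 0.549% lower. DESeq2 without the block called the same 2 genes, OVOL2 (adjusted p = 0.0767) and GRHL2 (adjusted p = 3.57e-07), where 0.225% of all genes were called higher and 0.15% lower. OVOL2, a zinc finger repressor of mesenchymal genes, was at 0.680, 2.04 and 0.928 CPM in WT and 3.08, 6.34 and 3.14 CPM in KO libraries. Its groups did not overlap, and its blocked log2 fold change was 1.83 (SE 0.25, edgeR adjusted p = 0.0216). GRHL2, a grainyhead-like activator of epithelial genes, was at 7.52, 5.60 and 8.58 CPM in WT and 0.536, 1.73 and 1.14 CPM in KO libraries. Its groups did not overlap either, and its blocked log2 fold change was −2.72 (SE 0.37, edgeR adjusted p = 0.0214). KLF4 and KLF5, activators of epithelial differentiation, and TFAP2A, an AP-2 factor of surface ectoderm, overlapped between the groups and did not pass with the block over all libraries. Without replicate 2 of both groups blocked edgeR called all 3 of them lower (KLF4 −0.41, adjusted p = 0.0467, KLF5 −0.35, adjusted p = 0.0968, TFAP2A −0.42, adjusted p = 0.0714), beside GRHL2 lower and OVOL2 higher, where 2.79% of all genes were called lower and 3.05% higher. The groups also overlapped for CDX2, the intestinal homeobox factor, at 16.7 CPM in both group means. Of the 11 markers of intestinal epithelium 7 could be tested in edgeR. With the block it called EPCAM alone, as lower (−0.98, adjusted p = 0.0788), where 0.549% of all genes were called lower. DESeq2 without the block also called EPCAM alone, as lower (adjusted p = 0.0508), where 0.15% of all genes were. The groups did not overlap for EPCAM. EPCAM did not pass in edgeR without the block (adjusted p = 0.668) or in DESeq2 with it (adjusted p = 0.162). The latter fit called KRT19 alone of these markers, as higher, where 2.53% of all genes were. Blocked edgeR without replicate 2 of both groups called EPCAM lower (−0.66, adjusted p = 0.000263) and KRT19 higher. In that fit 2.79% of all genes were called lower and 3.05% higher.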

How the data were processed

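Gene-level expected counts of 6 RNA-seq libraries (3 WT, 3 LSD1 KO) were used as the authors deposited them. According to the submitters' processing notes, reads were trimmed with Trimmomatic 0.39 and quantified with Salmon 1.4.0; the annotation was GENCODE on GRCh38, and how Salmon's transcripts were summed to genes is not given in the sources used here. Salmon shares reads among similar transcripts by estimate, which can move counts between a keratin and its pseudogenes or near copies. Values were whole numbers, and no column was left without a sample.

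Members were taken by symbol, which 58395 of 60240 gene identifiers had, and all 55 had a position and a transcript length. Members and lists were chosen with earlier results of these data known. Counts were scaled by TMM, filtered with filterByExpr and tested over all genes with the quasi-likelihood test of edgeR 4.0.16 in R 4.3.3, with Benjamini-Hochberg adjustment and a threshold of 0.1. CPM were divided by the length of the canonical transcript (GENCODE v44 lifted to GRCh37) where genes were compared. DESeq2 1.42.0 was an alternative, where genes with no adjusted p were left as such. The same-numbered libraries of WT and KO deviated together from their group means (r = 0.553, 0.553 and 0.404 for numbers 1, 2 and 3, and −0.516 to 0.0454 for different numbers), so the values with the replicate number as a block are given beside the unblocked ones. Why the numbers pair is not stated in the labels. The biological coefficient of variation was 0.279 without and 0.133 with the block. The fits were tested on simulated counts with changes set only in well-counted genes. That test does not reach genes with counts as low as those of KRT80 or KRT32.

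Named keratins were those with a mean of at least 1 CPM in a group, those called in either edgeR fit, and those at or under 3 counts in every library of one group and above 3 in every library of the other. KRT20, which was in the edgeR fit, met none of these rules and is given as well. So are the low genes picked out after their values were seen. For genes too low for the fit, ratios of summed counts carry exact 95% intervals that cover counting error only. Shared sequence is the percent of a gene's 31-base words found in transcripts of other genes (GENCODE v44). Positions and the 250-base promoters are from RefSeq (GRCh38.p14). Alternatives were RLE and upper quartile scaling, no filter or at least 10 counts in every library, DESeq2, the block, an adjusted p of 0.05, leaving out each library or pair, and shares not divided by length.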

Additional observations from a re-analysis of the deposited data

How the results depend on the processing

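The number of keratins called, 0 without the replicate block in edgeR, remained 0 with RLE or upper quartile scaling, with at least 10 counts in every library and at an adjusted p of 0.05. It was 2 without a filter on low counts, 3 in DESeq2, 2 with the replicate block in edgeR and 3 with the replicate block in DESeq2. Leaving out single libraries gave 0 to 1, the 1 being KRT80 without KO replicate 2. The share of all genes called in that fit is not given, so this count is not read as a result about the family. With the replicate block it was 3 without pair 1 (KRT15 and KRT80 higher, KRT18 lower), 4 without pair 2 and 2 without pair 3. KRT15 and KRT80 were among the genes called in each of these blocked fits, and their log2 fold changes ranged from 1.35 to 1.81 and from 2.21 to 3.15 over all alternatives. Of the 11 keratins in the fit, 4 changed sign. KRT8 ran from −0.41 to 0.064 over the left-out libraries and was above 0 without WT replicate 2. KRT10 ran from −0.19 to 0.42, being −0.12 without WT replicate 1, −0.03 without WT replicate 3 and −0.19 without KO replicate 2. KRT23 was 0.066 in the blocked fit without replicate 2 of both groups. KRT20 ran from −0.23 to 0.75 over the left-out libraries, below 0 without WT replicate 1 (−0.08), KO replicate 1 (−0.23) or KO replicate 3 (−0.03), and was −0.10 with the block in DESeq2 and −0.82 and −0.091 in blocked edgeR without pairs 1 and 3. The cause was not tested, beyond the 7 counts of KRT23 in KO replicate 2. The difference in the type II share, −5.50 percentage points, was −5.65 when counts were not divided by length and kept its sign without any 1 library. Depth limits what can be said of the keratins under 1 CPM, for which a few counts decide a fold.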

Other observations

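Pseudogenes of the abundant keratins were numerous in the table and carried few counts. The 51 KRT8 pseudogenes summed to 166, 110 and 179 counts in WT replicates 1, 2 and 3 and to 144, 133 and 144 in the KO replicates. The 67 KRT18 pseudogenes summed to 46, 20 and 65 counts in WT and to 73, 27 and 48 in KO libraries. The groups overlapped for both sums. The KRT18 pseudogene sum was lowest in replicate 2 of both groups.

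KRT8 per unit of KRT18, the classic pair of simple epithelia, was 1.73, 2.01 and 2.14 per kilobase in WT and 2.05, 2.80 and 2.52 in KO libraries, with 1 KO library inside the WT range. KRT15 per unit of its neighbour KRT19 was 0.0129, 0.0124 and 0.0155 in WT and 0.0257, 0.0282 and 0.0388 in KO libraries, with every KO ratio above every WT ratio. The KRT15 levels themselves already did not overlap, so this ratio is not read as a further result, and no p is given.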
